A study of Danio rerio with 18 samples.

Results

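The response of zebrafish gastrulae to added retinoic acid was read from 6 of the 18 RNA-seq libraries of a developmental series, 3 from whole embryos given all-trans retinoic acid (atRA) and 3 from controls given DMSO, the solvent, all collected at 80% epiboly. The libraries were chosen by the stage and treatment written in their titles, not by any measured value. Embryos were wild-type in both groups, were kept at 28°C and met 0.1 µM atRA or DMSO from 30% epiboly onward. Epiboly is the spreading of the blastoderm over the yolk, so the exposure began early in this spreading and ended late in gastrulation. The other libraries came from later stages and enter here only where stated. The labels do not say whether the replicates were separate clutches or how many embryos went into each, so p-values measure the spread between these libraries, which may be technical.

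Retinoic acid is a small lipid made from vitamin A that enters the nucleus and binds retinoic acid receptors. These receptors sit on DNA as partners of retinoid X receptors, release corepressors and recruit coactivators when the ligand is bound, and so can switch genes on from a repressed state. In the vertebrate gastrula and early neurula the signal helps to pattern the hindbrain and trunk along the head-to-tail axis, and enzymes of the Cyp26 family, which are themselves retinoic acid targets, keep its level low in the future head and at the margin. The size of the response, its direction, the abundance of the transcripts involved and whether their counts start or end near 0 are therefore the questions this comparison can address. RNA of whole embryos cannot tell a switch in a few cells from a graded change in many, so on and off below refer to counts only. Each deposited row is an Ensembl transcript ID, and 0 of the 58549 IDs were matched to a gene name in the tables used here, so the results below concern transcripts, and neither the genes of the retinoic acid pathway nor the markers of gastrula tissues were looked up.

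Counts assigned to transcripts ran from 95326249 to 115511468 in the control libraries and from 80522765 to 105463403 in the atRA libraries, with overlap between the groups. Pearson's r of log2 CPM, counts scaled to a common library size, was 0.990 to 0.992 between libraries of the same group and 0.974 to 0.976 between libraries of different groups. The first principal component of the 6 libraries held 62.8% of their variance and separated the groups, with controls at -59.7 to -56.0 and atRA libraries at 56.8 to 59.4. The labels name no preparation or sequencing batch, so one that followed treatment cannot be told apart from it.

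The response was wide and mostly shallow. Of 38203 tested transcripts, 27.8% passed an adjusted p of 0.05 in edgeR's quasi-likelihood test, 14.1% higher and 13.7% lower with atRA. Those calls numbered 5384 higher and 5221 lower, and 8364 of them, or 78.9%, were smaller than 2-fold. The median called rise was 1.53-fold and the median called fall 1.29-fold. In 97.6% of the called transcripts the CPM of the 3 atRA libraries did not overlap that of the 3 controls. Over all tested transcripts, atRA lay above every control in 21.3% and below every control in 20.9%. A fit of all 18 libraries called 7320 of 45569 tested transcripts, and 6563 of these were also called in the fit of the 6 libraries.

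With TMM scaling, which sets libraries to a common level through transcripts that change little, rises and falls were near equal in number but not in size. Among called transcripts with an absolute log2 fold change under 0.25, 549 were higher and 1389 lower, so rises made up 28.3%. Between 0.25 and 0.5 rises made up 45.2%, and between 0.5 and 1 they made up 56.6%. From 1 to 2 there were 1106 rises and 566 falls, and from 2 to 3 there were 302 rises and 61 falls. With library totals in place of TMM the calls were 6988 higher and 3662 lower, and rises made up 50.7%, 63.4% and 68.7% of the 3 smallest size classes, so the near equality and the excess of small falls belong to the TMM scale. Under either scaling the share of rises grew with the size of the change.

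At least 2-fold, the calls were 1611 rises, 4.22% of all tested transcripts, and 630 falls, 1.65%. At least 4-fold, they were 505 rises and 64 falls, and 0 tested transcripts changed that much without being called. That 0 concerns only what the filter let through, as 14641 IDs with a count were too scarce to be tested. It is no support for a difference. At least 8-fold, 203 rises and 3 falls were called, which are 0.531% and 0.00785% of the tested transcripts. Some of these rises start from next to no counts, where the fitted fold has no firm denominator. With transcripts of at most 3 counts in each library of the lower group set at a lower bound of their fold, 182 rises were at least 8-fold. Rises with slightly more control counts kept their fitted fold. Of the 203, 66 had at least 10 counts in each control library. The 3 falls did not depend on the bound, but they did depend on the libraries and the filter: leaving out 1 library gave 2 to 18 such falls, the most without atRA replicate 1, no filter gave 25 and a fit of all 18 libraries gave 24. Rises of that size numbered 66 to 308 over the 16 alternatives and falls 1 to 25.

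The extremes differed in the same way. The most negative log2 fold change of any tested transcript was -3.40, and the 99th percentile of called falls, taken as sizes, was 2.11. The 99th percentile of called rises was 4.91. The largest fitted rise in which some control library held more than 3 counts had a log2 fold change of 9.16. That transcript had 2 to 4 counts in the control libraries and 846 to 2771 in the atRA libraries. In all, 92 called transcripts rose by at least 4 on the log2 scale, 65 of them by less than 6 and 27 by 6 or more. These numbers and the percentiles use fitted values, also for transcripts with at most 3 counts in each control library. For such transcripts the fitted fold has no firm denominator, and the largest lower bound was 63.7-fold.

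**Figure D1:**
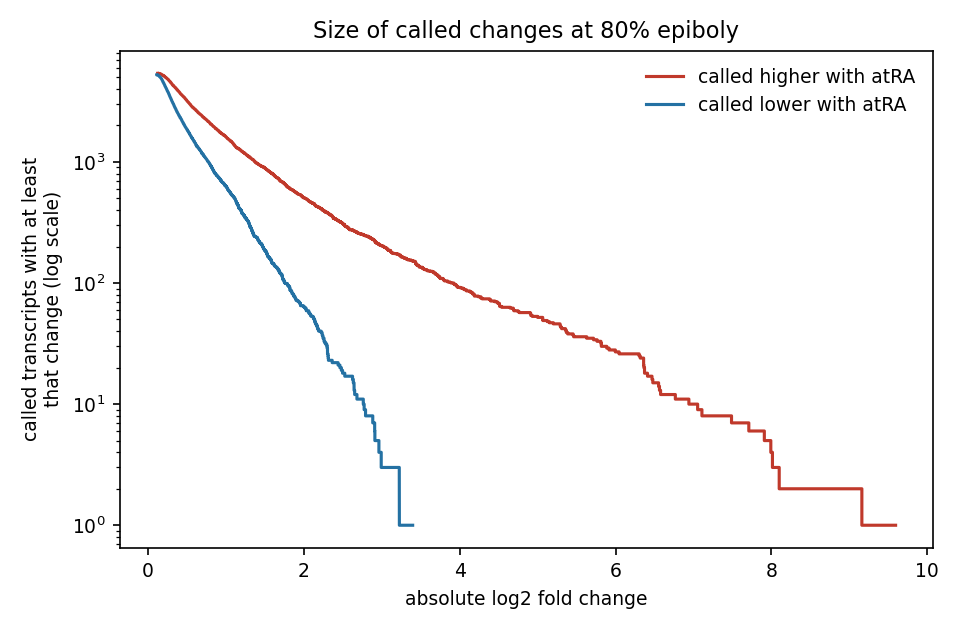
The number of called transcripts (y, log scale) whose absolute log2 fold change was at least the value on the x axis, for rises and falls with atRA at 80% epiboly. Both curves start near the same height, at 5384 and 5221 transcripts, and the curve of falls ends at 3.40 while the curve of rises runs on, with transcripts near 0 control counts drawn at their fitted values.

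The 3 atRA libraries moved to the same extent. For called rises of at least 2-fold, the median log2 ratio to the control mean, with 0.1 CPM added to both, was 1.24, 1.22 and 1.21 in atRA replicates 1, 2 and 3. For called falls of at least 2-fold it was -1.04, -1.10 and -1.04. The same medians in the control libraries lay between -0.06 and 0.04. These transcripts were chosen from the same values, so the medians describe how evenly the libraries share the response and are no further evidence of it. Within the group where a transcript was higher, the median coefficient of variation over the 3 libraries was 14.8% for these rises and 17.8% for these falls.

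The balance of rises and falls shifted with abundance, taken as the mean TMM-scaled CPM over all 6 libraries. Called falls grew from 5.57% of the tested transcripts in the scarcest class to 31.5% in the most abundant, while called rises were most frequent in the middle, at 17.0% from 1 to 10 CPM. Below 1 CPM, 1386 transcripts were called higher and 666 lower of 11952 tested. From 1 to 10 CPM, 2363 were higher and 1596 lower of 13941. From 10 to 100 CPM the balance was the other way, with 1512 higher and 2332 lower of 10320. At 100 CPM or more, 123 were higher and 627 lower of 1990.

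The share of calls that were rises was thus 67.5%, 59.7%, 39.3% and 16.4% from the scarcest to the most abundant class. Scaling moved these shares. With library totals in place of TMM, they were 73.9%, 71.7%, 58.5% and 37.1%, so that the class from 10 to 100 CPM turned to mostly rises, and the split over all calls moved from 50.8% to 65.6% higher. In the most abundant class falls stayed the larger side under that scaling, with 375 falls and 221 rises. The fall in the share of rises from class to class was present under both scalings. Across transcripts the median log2 fold change was 0.087, 0.036, -0.033 and -0.073 in the 4 classes with TMM, and 0.15, 0.099, 0.029 and -0.011 with library totals.

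**Figure D2:**
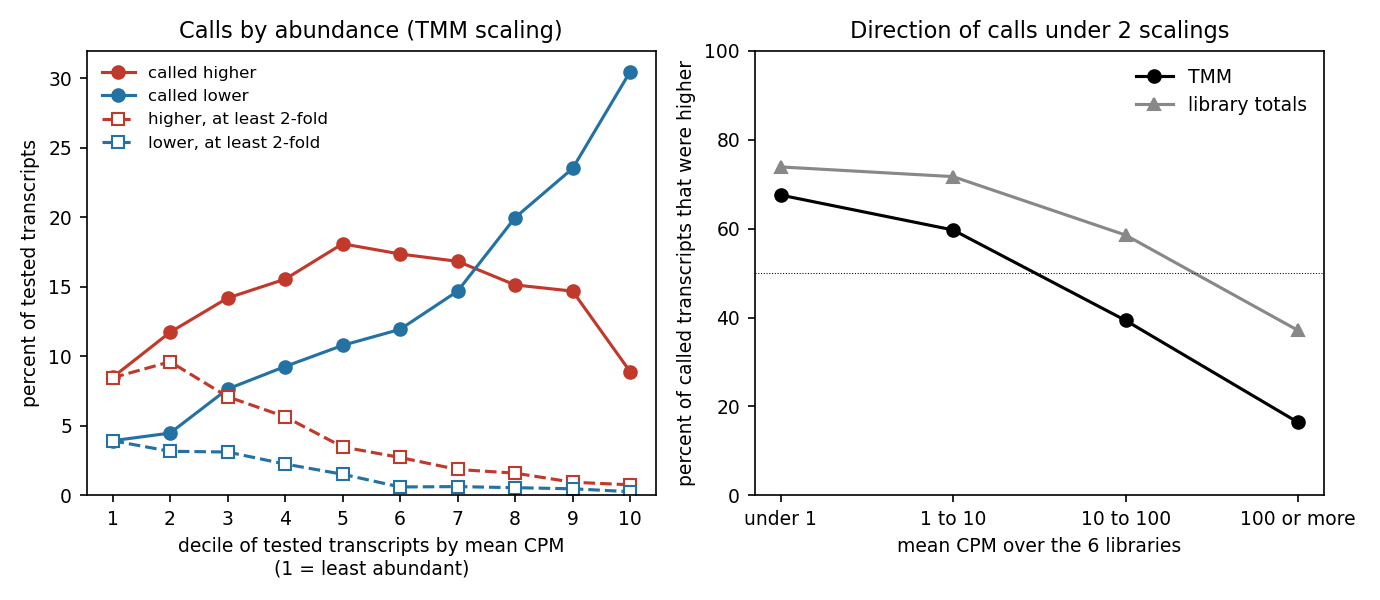
Left, the percent of tested transcripts called higher (red) or lower (blue) with atRA in each decile of the transcripts ranked by mean CPM, with open squares for calls of at least 2-fold; right, the percent of called transcripts that were higher in 4 classes of mean CPM under TMM (circles) and library totals (triangles). In the most abundant decile 8.90% were called higher and 30.5% lower, against 8.48% and 3.93% in the least abundant decile.

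The sensitivity of the test changed along the same axis. The median standard error of the log2 fold change was 0.31 below 1 CPM, 0.12 from 1 to 10 CPM, 0.062 from 10 to 100 CPM and 0.047 at 100 CPM or more. The smallest absolute log2 fold change that was called was 0.50 in the scarcest class and 0.11 in the most abundant. The share of tested transcripts that were called was 17.2%, 28.4%, 37.2% and 37.7% from the scarcest class upward with TMM, and 17.8%, 30.3%, 35.9% and 29.9% with library totals. The part of this precision in the number of calls per class was not tested.

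Changes of at least 2-fold went the opposite way along abundance. They were 994 rises and 402 falls below 1 CPM, or 11.7% of the transcripts tested there. From 1 to 10 CPM they were 483 rises and 175 falls, and from 10 to 100 CPM 117 rises and 51 falls. At 100 CPM or more, 17 rises and 2 falls reached 2-fold, or 0.955% of those tested. Of the 203 rises of at least 8-fold, 122 were below 1 CPM, 72 were from 1 to 10 CPM, 9 were from 10 to 100 CPM and 0 were above, where the largest rise had a log2 fold change of 1.81. Among calls of at least 2-fold, rises outnumbered falls in each of the 4 classes.

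**Figure D3:**
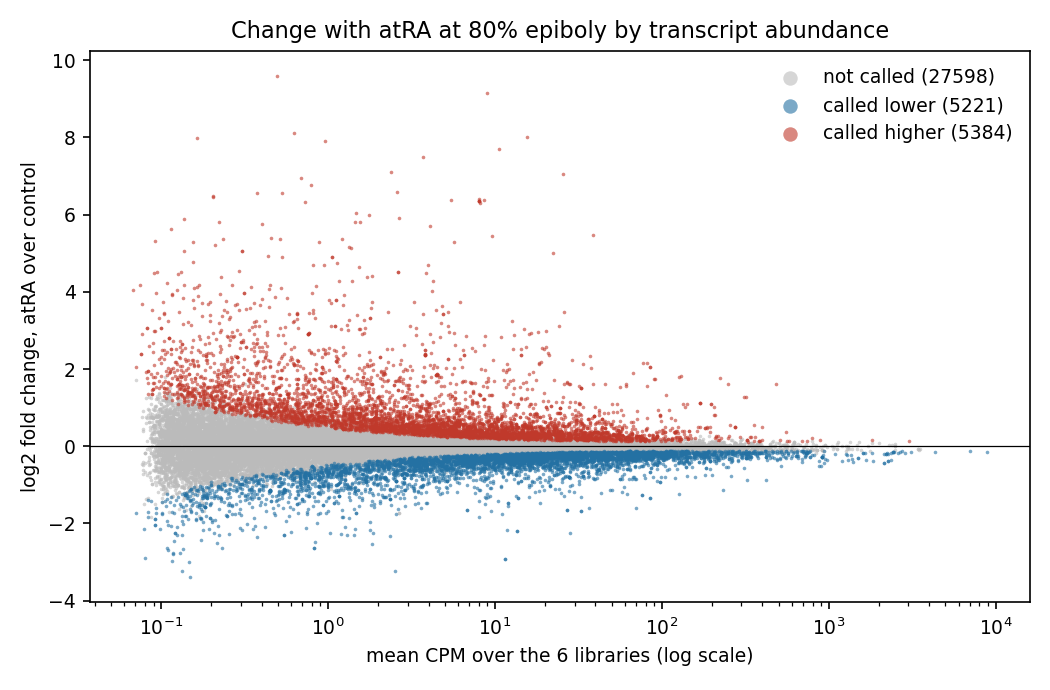
Log2 fold change of atRA over control (y) against mean CPM over the 6 libraries (x, log scale) for each of the 38203 tested transcripts at 80% epiboly, coloured by call. Red points reach far above the axis at low and middle abundance, blue points go no lower than -3.40, and at the right edge the called points are mostly small falls.

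Changes were also summed as CPM, where the balance over all calls is set by the scaling. With TMM, the called rises gained 25469 CPM in all and the called falls lost 59799, on a scale where the sum over all tested transcripts was itself lower with atRA. With library totals, where that sum is equal by construction, the gain was 35737 CPM and the loss 36212. The calls of at least 2-fold gave more gain than loss under both, 8309 against 2131 CPM with TMM and 8882 against 1837 CPM with library totals. With TMM, neither side rested on a few transcripts, since the 10 largest gains held 9.49% of the summed gain and the 10 largest losses 9.84% of the summed loss. It took 294 transcripts to make up 50% of the gain and 233 to make up 50% of the loss.

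Composition differed between the libraries of the groups. The 1000 most abundant IDs of each library held 48.5% ± 0.390 of the counts in controls and 47.3% ± 0.0980 with atRA (SD, 3 libraries each), with no overlap. IDs at 1 CPM or more numbered 25854 to 25981 in controls and 26309 to 26373 with atRA. IDs at 100 CPM or more numbered 2025 to 2041 in controls and 1943 to 1962 with atRA. The TMM factors, which correct for such shifts in composition, were 0.971 to 0.989 in controls and 1.02 in each atRA library. Each of these 4 differences had an exact two-sided permutation p of 0.1, the smallest that 3 against 3 allows, and an adjusted p of 0.15 over the 9 library measures compared. The numbers of IDs above a CPM level depend on the scaling and were not compared between scalings. Among tested transcripts at 100 CPM or more, the median log2 fold change was -0.073 with TMM but -0.011 with library totals.

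Movement across fixed levels was more often upward. Called rises took 616 transcripts from a control mean under 1 CPM to an atRA mean of at least 1 CPM, and called falls took 308 the other way. With library totals in place of TMM these were 711 and 246. Across 0.1 CPM the numbers were 420 upward and 125 downward, and across 10 CPM they were 397 and 294. Testing required about 0.103 CPM in at least 3 libraries. A transcript with a mean under 0.1 CPM in 1 group was thus tested only if some library of the other reached about that level. In controls 1014 tested transcripts had a mean under 0.1 CPM and 11221 had one of 0.1 to 1 CPM. From 1 to 10 CPM there were 13720, from 10 to 100 CPM 10215, and at 100 CPM or more 2033. The numbers across 0.1 CPM describe what the filter let through and are no support for a difference. Most of the 2-fold rises began under 1 CPM in controls, and many but not all of these ended under it. Of the 1611, 389 went from under 0.1 CPM to between 0.1 and 1 CPM, 443 moved within 0.1 to 1 CPM and 353 went from there to between 1 and 10 CPM. From under 0.1 CPM, 29 reached 1 to 10 CPM and 2 reached 10 to 100 CPM.

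Rises of at least 8-fold had control levels from 0 to 5.05 CPM, with a median of 0.057 CPM, and atRA levels from 0.13 to 75.2 CPM, with a median of 1.12 CPM. By control level, 125 of the 203 were under 0.1 CPM, 71 were between 0.1 and 1 CPM and 7 were between 1 and 10 CPM. At least 10 counts in each control library were present for 66 of them. Falls of at least 4-fold had a median of 0.41 CPM in controls and 0.087 CPM with atRA.

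A stricter reading of on and off used raw counts. A transcript was called off in a group when each of its 3 libraries held at most 3 counts, which corresponds to 0.027 to 0.036 CPM depending on the library. By that rule 61 called transcripts, 0.16% of those tested, rose from off, and 2, or 0.00524%, fell to off. These 61 were 3.79% of the called rises of at least 2-fold, and the 2 were 0.317% of the called falls of that size. Testing required about 0.103 CPM in at least 3 libraries, so a transcript that was off in 1 group could be tested only if it was clearly present in the other, and all 61 and 2 that were tested were called. The numbers are a description of what the filter let through and no support for a difference. Their size also hung on the filter, since without it 215 transcripts rose from off and 46 fell to off, and with all 18 libraries in 1 fit the numbers were 248 and 72. Rises outnumbered falls in each of the 18 alternatives tried, but most of these share the filter rule and the libraries, so that is no support either.

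Both numbers also moved when a library was left out, which changes at once the filter and, for libraries of the low group, how many had to meet the floor. Without control replicate 1, 2 or 3, 118, 144 and 122 transcripts rose from off. Without atRA replicate 1, 2 or 3, 28, 23 and 28 fell to off, and without control replicate 1 or 3, 6 and 7 did. Requiring at most 1 count in each library of the low group left 20 rises, and 0 falls, as 0 tested transcripts were that low in the atRA libraries. Allowing 10 counts gave 308 rises and 91 falls. A floor set at the same CPM in every library, that of 3 counts in the shallowest, gave 64 rises and 2 falls. Of the 58549 IDs, 13512 were off in controls and 13309 were off with atRA, and 11714 were off in both.

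**Figure D4:**
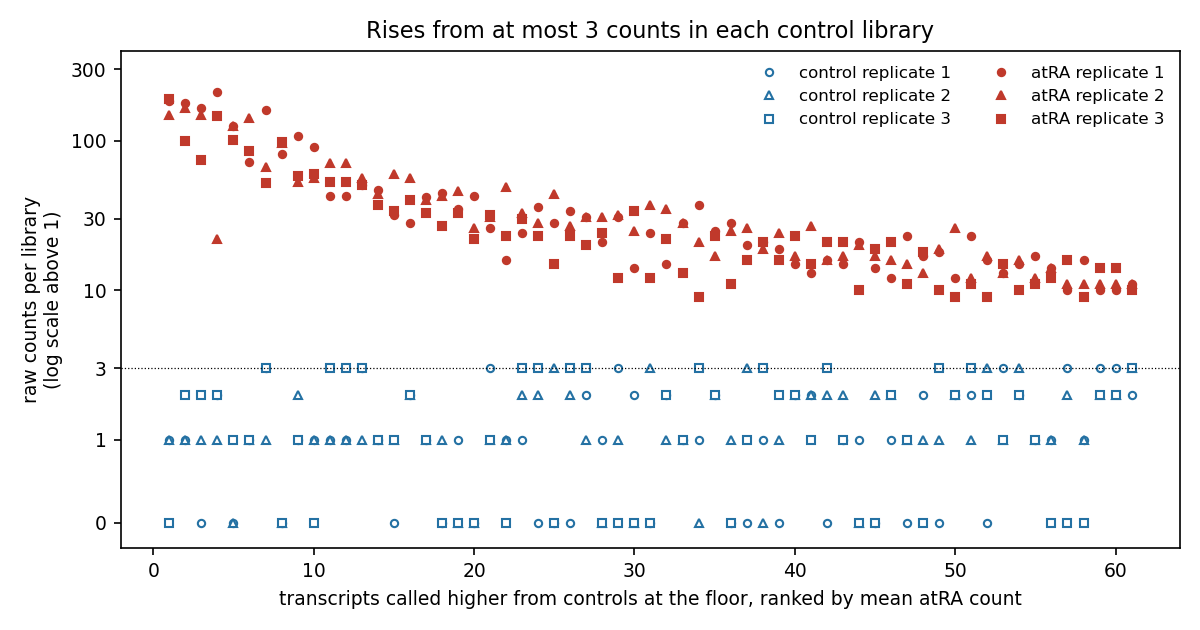
Raw counts per library (y, log scale above 1) of the 61 transcripts called higher with atRA from at most 3 counts in each control library, ranked by mean atRA count, with open blue symbols for controls and filled red symbols for atRA. The controls lie at 0 to 3 counts and the atRA libraries at 9 to 211 counts.

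The transcripts that rose from off did not rise far in absolute terms. Their atRA levels ran from 0.115 to 1.90 CPM with a median of 0.252 CPM, and 7 of the 61 reached 1 CPM. Measured against 3 counts in each control library, the rises were at least 3.84-fold to at least 63.7-fold, with a median bound of 8.45, and the bound was 8 or more for 33. In 2 of them all controls held 0 counts, and the other 59 had at least 1 count in some control library. The coefficient of variation over the atRA libraries ran from 5.79% to 76.3%, with a median of 26.5%. The most variable, chosen after its values were seen, held 211, 22 and 147 counts in atRA replicates 1, 2 and 3. Bounds set the control level at 3 counts and take the atRA mean as observed, so they do not cover the spread between libraries.

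Large rises were of both kinds. Of the 203 rises of at least 8-fold, 54 had controls at the floor and 149 had more than 3 counts in some control library. That split is set by the filter, since without it 153 of 308 such rises had controls at the floor and 155 did not. With the filter, all but 2 of the 630 falls of at least 2-fold kept more than 3 counts in some atRA library. Of the 630, 125 had an atRA mean under 0.1 CPM, so their low state rested on few counts.

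The ends of these ranges are shown by 4 transcripts picked by rule, since the IDs carry no names here. ENSDART00000046464.7 had the largest bounded rise from off. It held 1, 1 and 0 counts in the control libraries and 184, 148 and 191 in the atRA libraries. The groups did not overlap, and the level with atRA was 1.90 ± 0.481 CPM (SD, 3 libraries). This was at least 63.7-fold above the floor of 3 counts in each control library (adjusted p = 3.83e-08, edgeR). That p concerns any change, not the size of the bound. With next to no control counts, the transcript passed the filter only through its atRA libraries. All 61 tested transcripts with controls at the floor were called, and in none of them did the groups overlap. The call and the lack of overlap are therefore no support for a difference.

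ENSDART00000041728.6 had the largest gain in CPM of any called rise with no overlap. It was already well expressed in controls, at 242, 231 and 241 CPM, and stood at 732, 728 and 737 CPM with atRA. The 3 atRA libraries lay closer together than the 3 controls, with means of 732 ± 4.34 and 238 ± 6.23 CPM (SD, 3 libraries each). The rise was 3.08-fold, or 1.62 ± 0.040 (SE) on the log2 scale, with an adjusted p of 1.82e-11 in edgeR. This 1 transcript gave 494 CPM, or 1.94%, of the summed gain with TMM, and it is the case of a rise at high abundance.

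ENSDART00000076711.6 had the most negative log2 fold change among called transcripts with at least 10 counts on average in both groups and no overlap. Its counts were 441, 339 and 608 in the control libraries and 47, 39 and 49 with atRA. The levels were 4.52 ± 0.914 CPM in controls and 0.490 ± 0.118 CPM with atRA (SD, 3 libraries each). The difference was -3.23 ± 0.20 (SE) on the log2 scale, with an adjusted p of 9.14e-08 in edgeR. This is a 9.35-fold fall that left the transcript well above the floor in each atRA library.

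ENSDART00000023156.6 had the largest loss in CPM of any called fall with no overlap. It stood at 9244, 9063 and 9672 CPM in controls and at 8216, 8679 and 8444 CPM with atRA. All atRA libraries were below all controls, but by little, and the fall was 1.10-fold (-0.14 ± 0.040 (SE) on the log2 scale, with an adjusted p of 0.0173 in edgeR). The loss of 880 CPM was 1.47% of the summed loss with TMM. The call was lost in 7 of 16 alternatives, among them library totals, where edgeR gave -0.081 on that scale with an adjusted p of 0.104. The adjusted p ran from 0.00376 to 1 over the alternatives, with 1 from edgeR's glmTreat, which tests against a fold of 1.2. Losses under glmTreat and under an adjusted p of 0.01 were fixed in advance. A 1.10-fold change is smaller than 1.2-fold, and 0.0173 is above 0.01. Without control replicate 3, atRA replicate 1 or atRA replicate 3 the adjusted p was 0.0601, 0.0721 and 0.0590 (edgeR).

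**Figure D5:**
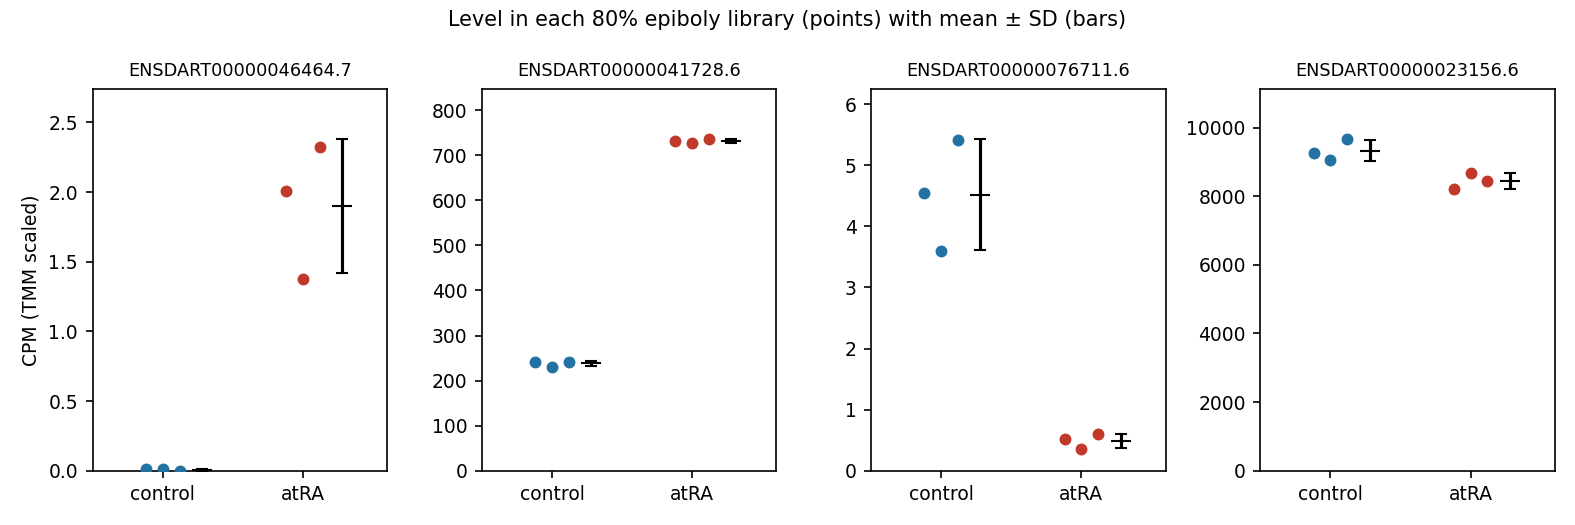
CPM in each of the 6 libraries at 80% epiboly (points) with the mean and SD of each group (bars) for the 4 transcripts picked by rule, each panel on its own linear axis from 0. From left to right they show a rise from next to nothing to 1.90 CPM, a rise from 238 to 732 CPM, a fall from 4.52 to 0.490 CPM and a small fall from 9326 to 8446 CPM.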

How the data were processed

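The authors deposited raw counts of reads per versioned Ensembl transcript ID, 1 file per library, not pooled. STAR, HTSeq and the builds GRCz10 and danRer10 are named in the submitters' processing notes, without versions; annotation release, strand setting and filters are not given in the sources used here. How reads shared by isoforms, near-identical copies or antisense transcripts were counted is not stated, and 1991 tested IDs shared every count with some other ID across the 6 libraries, so calls are not numbers of independent transcripts. The 5 summary lines, whose names start with __, were removed before scaling and testing.

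The 6 libraries of 80% epiboly were filtered with filterByExpr, scaled by TMM and fitted with edgeR 4.0.16 (glmQLFit, glmQLFTest, R 4.3.3) with treatment as the factor, and p-values were adjusted by Benjamini-Hochberg over all 38203 transcripts tested. Calls had an adjusted p under 0.05. The common biological coefficient of variation was 0.0774. The script was run on simulated data in which 200 transcripts changed, far fewer than were called here. That run thus does not check the scaling under a response this wide. Standard errors are the absolute log2 fold change over the square root of F. Replicates differed by more than sampling noise, with a chi-square per degree of freedom of 6.21 to 14.0 between libraries of a group. The CPM of a floor of 3 counts in each library, averaged over the low group, was the denominator of bounds.

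Gene lists for the retinoic acid pathway, hox genes and gastrula markers could not be applied, as 0 IDs carried a symbol. Without symbols the rule for named transcripts gave 4: the largest bounded rise from the floor, the largest gain and loss in CPM, and the most negative log2 fold change with a mean of at least 10 counts in each group, passing over IDs with identical counts. Comparisons and lists were chosen with earlier results of these data known. Alternatives were DESeq2 size factors or library totals in edgeR, no filter or at least 10 counts in each library, an adjusted p under 0.01, DESeq2 1.42.0 (Wald test), glmTreat against a fold of 1.2, a replicate block, all 18 libraries in 1 fit, 1 ID per set of identical counts, each library left out, and other floors and abundance classes.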

Additional observations from a re-analysis of the deposited data

Results flagged for a closer look

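Reads assigned to no transcript lie outside the counts used above. They made up 3.41% ± 0.0727 of the reads in the atRA libraries and 3.17% ± 0.0955 in controls (SD, 3 libraries each), as a share of transcript counts and summary lines together. Each atRA library was above each control, but the composition measures given above did not overlap between the groups either. The exact two-sided permutation p was 0.1, the smallest possible, and 0.15 after adjustment over the 9 library measures compared. The share of ambiguous reads, 18.7% with atRA and 18.8% in controls, overlapped between the groups, as did that of reads without a unique alignment. The part of this difference in the results was not tested.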

How the results depend on the processing

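An adjusted p under 0.01 left 6346 calls, 3306 higher and 3040 lower, 419 falls of at least 2-fold, 194 falls across 1 CPM and 1 fall to off. From the scarcest class upward it left 734 rises and 245 falls, 1484 and 912, 1004 and 1479, and 404 falls at 100 CPM or more. The glmTreat test left 4187 calls, 2614 higher and 1573 lower, 198 falls across 1 CPM, and by class 899 and 331, 1196 and 669, 471 and 512, and 48 and 61. Both are stricter by construction. At least 10 counts in each library left 1063 rises and 414 falls of at least 2-fold, 66 and 1 of at least 8-fold, and 919 rises below 1 CPM, and off transcripts could not be tested. No filter gave 308 rises and 25 falls of at least 8-fold and 215 and 46 from and to off. DESeq2's test gave 5 falls of at least 8-fold and 1 to off. All 18 libraries in 1 fit gave 24 falls of at least 8-fold, 248 rises from off and 72 falls to off, 1530 rises from 1 to 10 CPM, 669 and 1328 from 10 to 100 CPM, and 58 and 348 above. Library totals gave 1535 falls from 10 to 100 CPM, and 221 rises and 375 falls above, and shifted the median log2 fold change of all transcripts by 0.062. Floors of 1 and 10 counts gave 20 and 308 rises and 0 and 91 falls. The sums of CPM, the size classes by scaling and the floor split without the filter were added after the data were seen. Where no cause is named, the cause was not tested.

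Leaving out 1 library gave 7933 to 10602 calls, 72 to 144 rises from off and 3 to 28 falls to off. It gave 422 to 581 falls below 1 CPM and 80 to 154 rises at 100 CPM or more, both lowest without atRA replicate 2. Falls of at least 8-fold numbered 2 to 18: 9 and 5 without control replicates 1 and 3, and 18, 7 and 13 without atRA replicates 1, 2 and 3. Leaving these additions aside, 316 counts were taken under alternatives, and 250 stayed within 1.5 times. Rises outnumbered falls at 2-fold and at 8-fold in each of 16 alternatives, and below 10 CPM in each of 17. Falls outnumbered rises from 10 to 100 CPM in all of the 17 but library totals, and above in all 17. Most of these alternatives share the filter rule and the libraries, so the repeats are no independent support. Of the 2-fold calls, 420 rises and 125 falls had a mean under 0.1 CPM in the lower group. The filter let these through only with libraries of the higher group.

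The labels do not say whether libraries with the same replicate number form a pair, and 3 libraries in each group are too few to tell. The deviations of control and atRA libraries with the same number correlated at -0.043, 0.048 and 0.037, and control replicate 1 correlated best with atRA replicate 3, at 0.069. A fit with replicate as a block called 10464 transcripts, 9985 of them also called without it. Of 63 values of the 4 named transcripts under alternatives, 56 kept direction and call, and the 7 lost calls were all of ENSDART00000023156.6. Below 1 CPM the smallest called change was 0.497 on the log2 scale, and smaller changes there were not called.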

Other observations

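The later libraries of the series, scaled by TMM within their own stage and exposed from 80% epiboly, gave these levels for the same transcripts. ENSDART00000041728.6 stood at 23.0 ± 0.363 CPM in 12-somite controls and 526 ± 6.52 CPM with atRA, and at 18.1 ± 5.34 and 490 ± 55.4 CPM at 24 hpf (SD, 3 libraries each). Its mean atRA level was between 490 and 732 CPM at the 3 stages, while its mean control level was highest at 80% epiboly. As scaling and exposure differed between stages, these levels are not on a strictly common scale. ENSDART00000046464.7 held 9 to 19 counts in 12-somite controls and 2 to 7 with atRA, and 0 to 2 and 0 to 5 counts at 24 hpf. ENSDART00000076711.6 never exceeded 12 counts in these libraries. Of the 61 transcripts that rose from off with atRA in gastrulae, 48 had more than 3 counts in each control library at 12 somites and 44 at 24 hpf, while 8 were off in each control library at 12 somites and 8 at 24 hpf. The same counts were not taken over all IDs that were off in gastrula controls, so these numbers have no baseline.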
